A study of Mus musculus with 39 samples.

Results

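The genes of the splicing machinery followed here are 53 spliceosome and hnRNP genes, taken by name from the 14825 genes that could be tested on a mouse expression microarray. They comprise 7 Sm core genes, 3 U1, 10 U2 and U2AF, 8 tri-snRNP and 7 LSm genes, 3 genes of the Prp19 complex, 1 gene of the U11/U12 particle, 2 exon junction genes and 12 hnRNP genes. A probe belonged to a member where its array gene name, or the current symbol of that name, was the member's. The 81 member probes included 77 that passed the detection filter, all 53 members kept at least 1 probe, and the brightest one stood for the gene. That probe was well above background on all 39 arrays for every member, and none of the 2067 member values had to be filled in.

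The 39 arrays came from 13 conditions with 3 arrays each, and every array held total RNA of 100 oocytes or embryos labelled B6D2F1 x ICR. Control arrays covered germinal vesicle (GV) oocytes, metaphase II (MII) oocytes, and embryos at the 1-cell, 2-cell, 4-cell, 8-cell, morula and blastocyst stages. Zygotes made by in vitro fertilization were exposed to 10 µM of a histone deacetylase inhibitor (HDACi) for 6 h from 4 h post-insemination (hpi), then cultured further in its absence. T247, which is selective for HDAC3, was followed at the 1-cell (12 hpi), 2-cell (24 hpi) and 4-cell (48 hpi) stages, and MGCD0103 (mocetinostat), which acts on class I HDACs, at the 1-cell and 2-cell stages. The embryos carried no transgene, and the labels describe no vehicle arm beyond the control. A pool of 100 embryos cannot tell fewer embryos with a transcript from less of it in each embryo. The control arrays lay on 3 slides, 1 replicate of each stage per slide. All T247 arrays of the 1-cell and 2-cell stages lay on 1 further slide, those of the 4-cell stage on that slide and another, and all MGCD0103 arrays on 1 more, so slide and treatment cannot be told apart, nor slide and compound.

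Most mammalian transcripts carry introns that the spliceosome removes. In the major spliceosome, small nuclear ribonucleoprotein particles (snRNPs), each an RNA with a set of proteins, assemble on the intron: U1 binds the upstream splice site, U2AF and U2 the region before the downstream site, and the U4/U6.U5 tri-snRNP then joins and is remodelled into the active enzyme with the Prp19 complex. Sm proteins form the ring common to U1, U2, U4 and U5, LSm proteins the ring of U6, and the U11/U12 particle replaces U1 and U2 on a rare class of introns. The hnRNP proteins coat nascent RNA and influence splice site choice, stability and transport. Oocytes stop transcribing before the end of meiosis, so an early embryo first lives on maternal RNA, which it degrades while zygotic gene activation (ZGA) starts weakly at the 1-cell stage and in full at the 2-cell stage.

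Correlations between the 3 arrays of a condition were at least 0.988 except among the 2-cell controls, where they went down to 0.934. There, replicate 1 stood more than 1 log2 unit above both others in 14 members and more than 1 below both in 4, and in 17 of these 18 the displacement was towards the 1-cell level. Such displacement touched 34% of the members and 26.2% of all genes, so the counts of members at the 2-cell stage, and the LFCs of the leading ones, are also given without that array. Of the stage markers, all 5 of the 2-cell embryo list were well above background in the 2-cell controls and their summed signal was 51590 to 60520, against 46140 to 51120 after T247 and 39510 to 50840 after MGCD0103. The 9 oocyte markers, also all detected, summed to 189900 to 219100 in 2-cell controls, 139000 to 158400 after T247 and 187000 to 225500 after MGCD0103. Of 8 cumulus cell markers 3 (Amhr2, Cyp19a1 and Foxl2) were detected in all 2-cell controls, and Amh, Fshr and Ptx3 on none of them. The 8 summed to 14750 to 19570 there, 7751 to 9295 after T247 and 10400 to 11670 after MGCD0103. The mean log2 signal of Foxl2 was 13.73 in 2-cell and 14.47 in blastocyst controls. That of Amhr2 was 2.14 in 1-cell and 11.37 in 2-cell controls, so the cumulus sum cannot be read as an amount of cumulus cells. Of 6 sperm markers 2 were detected in all 2-cell controls (sums of 992.4 to 1296, 615.3 to 868.3 and 1283 to 1437), and the blastocyst list of 8 summed to 2152 to 3255, 6338 to 7333 and 6561 to 8788 in the same order. The sums are of signals before normalization, in which the brightest genes weigh most, and single markers could go against their list. Nanog of the blastocyst list had mean log2 signals of 6.19, 5.26 and 5.18 in the same order. After T247, Dub1 of the 2-cell list went from 12.37 to 12.88, while Tdpoz4 went from 11.32 to 10.31. What the shifts in these markers contribute to the splicing genes was not tested.

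The splicing genes followed the maternal-to-zygotic change in 2 opposite ways in control embryos. Between the 1-cell and 2-cell stages 27 of the 53 members fell and 9 rose as differentially expressed genes (DEGs), that is, genes whose log2 fold change (LFC) reached 1 in either direction with an adjusted p under 0.05 in limma. Among all genes 33.9% fell and 18.2% rose. The median LFC was -1.06 for the members and -0.49 for all genes. With 75th-percentile scaling 25 members fell and 11 rose (27.3% and 21.1% of all genes), with medians of -0.83 and -0.24. With full quantile normalization 18 fell and 10 rose (28.1% and 20.3% of all genes), with medians of -0.43 and -0.27. Within the 3 control slides the member median lay between -1.16 and -0.73. Between the 2-cell and 4-cell stages the balance turned, and 30 members rose and 2 fell, beside 25.8% and 34.1% of all genes, with a median of 1.13 against -0.21. The within-slide medians for that step were 0.78 to 1.27. The heatmap of stage means shows this dip at the 2-cell stage with the few genes that go against it.

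**Figure D1:**
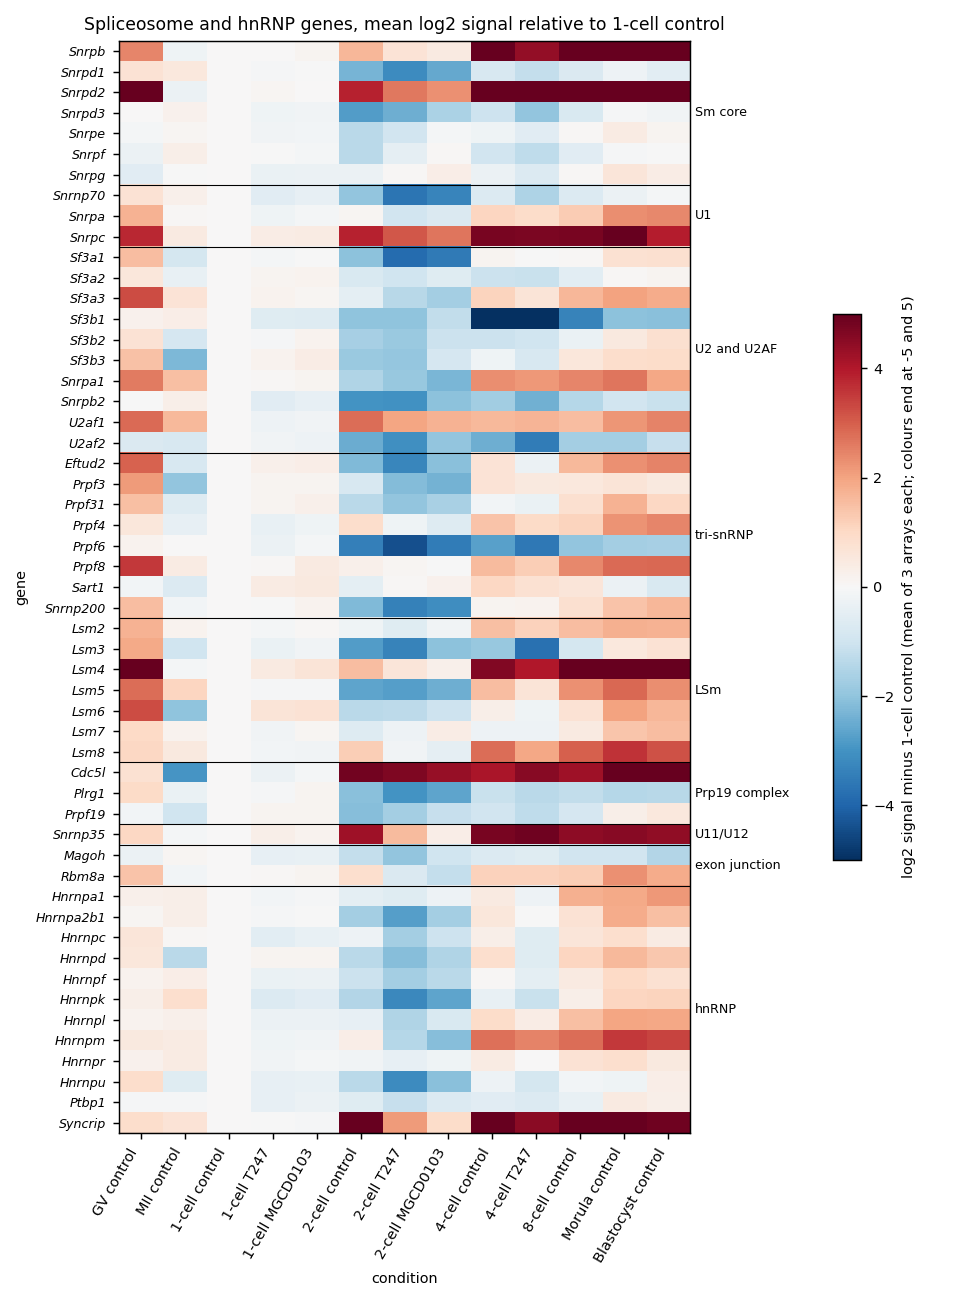
Mean log2 signal of each of the 53 members (rows, grouped by role) in the 13 conditions (columns, 3 arrays each) minus its mean in 1-cell controls; the colour scale, in log2 units, ends at 5 and -5. Red stands for a higher and blue for a lower mean, and Syncrip, Cdc5l and Snrnp35 are the reddest rows in 2-cell controls, with LFCs of 5.11, 4.83 and 4.26, while the 27 members that fell there are blue.

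Syncrip showed the steepest rise at the 2-cell stage. It encodes hnRNP Q, an RNA-binding protein of mRNA stability and transport. On the normalized log2 scale its probe, at chr9:88350460-88350519 on the minus strand of mm9, read 6.44, 6.29 and 6.87 in the 3 1-cell controls and 11.20, 11.91 and 11.81 in the 2-cell controls, then stayed at 11.50 to 11.67 at the 4-cell stage. The 1-cell and 2-cell groups lay far apart, and the LFC was 5.11 (SE 0.21, adjusted p = 3.68e-19). Snrnp35 encodes a protein of the U11/U12 particle, the minor-intron counterpart of U1-70K. Its probe, at chr5:124941008-124941067 on the plus strand of mm9, read 7.34, 7.29 and 7.35 at the 1-cell stage and 10.45, 12.14 and 12.15 at the 2-cell stage. The first of the 2-cell controls was again the one nearest to the 1-cell level, though still about 3 log2 units above it, and the LFC was 4.26 (SE 0.24, adjusted p = 6.56e-16). Cdc5l, a core protein of the Prp19 complex, read 10.26, 9.42 and 10.00 in 1-cell controls and 14.81, 14.61 and 14.75 in 2-cell controls. It rose by an LFC of 4.83 (SE 0.17, adjusted p = 1.36e-20), after an earlier rise of 2.95 (SE 0.17, adjusted p = 7.49e-15) between MII oocyte and zygote.

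The other rises at the 2-cell stage spread over several particles. They were Snrpd2 (LFC 3.84) and Snrpb (1.64) of the Sm ring, Snrpc of U1 (3.84), U2af1, the small U2AF subunit that reads the end of the intron (2.81), and Lsm4 (1.54) and Lsm8 (1.24) of the U6 ring. The largest falls were those of Prpf6 (LFC -3.41, SE 0.11, adjusted p = 1.17e-21), a scaffold of the tri-snRNP, Snrpb2 of U2 (-2.99, SE 0.29, adjusted p = 1.12e-10), and the Sm gene Snrpd3 (-2.79, SE 0.31, adjusted p = 2.09e-09). Prpf6 read 14.89, 14.86 and 14.76 at the 1-cell stage and 11.61, 11.48 and 11.19 at the 2-cell stage. Snrpb2 and Snrpd3 show what the odd control array does to a fall. Snrpb2 read 13.25, 11.01 and 11.51 and Snrpd3 12.70, 10.30 and 10.61 in 2-cell controls, with replicate 1 highest in both and all 3 arrays below the 1-cell controls (14.82 to 15.00 and 13.77 to 14.24). Without that array the counts were 27 falls and 10 rises (33.5% and 21.5% of all genes). The LFCs were then -3.58 for Snrpb2, -3.44 for Snrpd3, -3.43 for Prpf6, 5.38 for Syncrip, 4.86 for Snrnp35 and 4.79 for Cdc5l. At an adjusted p below 0.05 with no limit on the LFC 36 members were lower and 11 higher (75.1% of all genes passed).

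Transcripts for proteins of the same ring thus moved in opposite directions. Of the 7 Sm core genes 2 rose and 4 fell at the 2-cell stage, of the 7 LSm genes 2 rose and 3 fell, and of the 10 U2 and U2AF genes 1 rose and 7 fell, while the 8 tri-snRNP genes gave 4 falls and no rise. At the 4-cell stage all 32 changes but the 2 falls of Sf3b1 and U2af1 were rises. The largest were those of Lsm5 of the U6 ring (LFC 4.16, SE 0.17, adjusted p = 1.35e-19), Snrpb (3.85, SE 0.15, adjusted p = 2.85e-20) and Snrpa1 of U2 (3.83, SE 0.14, adjusted p = 8.22e-21). Lsm5 read 8.06, 7.20 and 7.34 in 2-cell and 11.70, 11.72 and 11.66 in 4-cell controls, with the groups well apart. Snrpb went from 8.09, 8.39 and 8.14 to 12.00, 12.16 and 12.00, and Snrpa1 from 9.66, 9.31 and 9.60 to 13.27, 13.37 and 13.44. Neither pair of groups came near to overlapping. Sf3b1, the U2 subunit that holds the branch point, went from 10.22, 7.72 and 8.02 to 5.36, 5.08 and 5.21, a fall of 3.44 on the log2 scale (SE 0.32, adjusted p = 4.55e-11), and U2af1 fell by 1.21 (SE 0.11, adjusted p = 1.11e-11), from 14.96, 15.38 and 15.34 to at most 14.04. Without 2-cell control replicate 1, 32 members rose and 2 fell at the 4-cell stage (23% and 36.3% of all genes), and the LFCs were 4.23 for Lsm5, 3.64 for Snrpb, 3.78 for Snrpa1, -2.85 for Sf3b1 and -1.32 for U2af1. Sf3b1 rose again by 2.11 (SE 0.32, adjusted p = 4.84e-06) at the 8-cell stage, where its arrays read 7.31, 7.33 and 7.34. At any LFC 43 members were higher and 4 lower at the 4-cell stage (78.5% of all genes passed). The 4-cell rises numbered 41 with scaling to the 75th percentile (33.8% of all genes) and 28 with full quantile normalization (30.8%).

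The steps before and after these were smaller or hung on the scaling. Between GV and MII 26 members fell, beside 48.8% of all genes, and none rose (0.526% of all genes rose). The median was -0.97 in members and -0.96 in all genes. With 75th-percentile scaling, which moved the all-gene median to 0.33 and the member median to 0.25, 19 members rose and 13 fell. With full quantile normalization 17 rose and 13 fell, with medians of 0.30 in members and in all genes. The share of lower genes among all DEGs went from 98.9% to 44.6% and 44.3% with these scalings. At any LFC 34 members were lower and 4 higher by the adjusted p (67.3% of all genes passed). Snrpd2 stood out in that step: its 3 GV arrays read 15.03, 15.12 and 15.05 and its MII arrays 8.24, 8.30 and 8.20, an LFC of -6.82 (SE 0.14, adjusted p = 2.58e-26). Lsm4 (-5.52, SE 0.22, adjusted p = 5.37e-20) and Lsm6 (-5.29, SE 0.12, adjusted p = 7.24e-26), 2 proteins of the U6 ring, came next. Lsm4 read 13.45, 13.46 and 13.43 in GV and 7.92, 8.04 and 7.82 in MII oocytes, and Lsm6 15.47, 15.48 and 15.50 against 10.24, 10.12 and 10.21. The groups lay more than 5 log2 units apart in each, and the 3 falls kept their direction and their call under every scaling tried. From MII to the 1-cell stage 6 members rose and 3 fell (17.2% and 5.63% of all genes). Sf3b3 of U2 rose by an LFC of 2.26 (SE 0.22, adjusted p = 6.17e-10) and Lsm6 by 2.03 (SE 0.12, adjusted p = 8.72e-15), while U2af1 (-1.64, SE 0.11, adjusted p = 1.01e-13), Snrpa1 (-1.51, SE 0.14, adjusted p = 1.74e-10) and Lsm5 (-1.06, SE 0.17, adjusted p = 4.87e-06) fell. Sf3b3 went from 11.14, 11.09 and 10.94 in MII oocytes to 13.58, 13.07 and 13.28 in zygotes, Lsm6 to 12.43, 11.92 and 12.33, and Cdc5l from 6.71, 6.95 and 7.16 to 10.26, 9.42 and 10.00. U2af1 went from a median of 14.03 (highest 14.12) to 12.21, 12.57 and 12.46, Snrpa1 from 12.65, 12.43 and 12.56 to 10.79, 11.29 and 11.04, and Lsm5 from 11.50, 11.10 and 11.05 to 9.89, 10.32 and 10.28. No MII array overlapped a zygote array in these 6 genes. With no limit on the LFC 16 members were higher and 12 lower (48.2% of all genes passed). With 75th-percentile scaling 4 rose and 6 fell, while the share of lower genes among all DEGs went from 24.7% to 52.5%.

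Beyond the 4-cell stage few members changed. At the 8-cell stage 3 rose (7.98% of all genes) and none fell (6.58% of all genes). Besides Sf3b1 these were Hnrnpa1, a splicing repressor (LFC 1.32, SE 0.18, adjusted p = 9.18e-07), and Lsm3 (1.03, SE 0.24, adjusted p = 0.000878). Hnrnpa1 went from 11.73, 11.57 and 11.85 to 13.04, 12.98 and 13.11, and Lsm3 from 10.65, 10.62 and 10.78 to 11.73, 11.73 and 11.69, with no overlap. Without 8-cell replicate 1 the rises numbered 6. At the morula 8 rose (31.7%) and none fell (6.16%), with equal medians of 0.55 in members and 0.56 in all genes. Under both other scalings 1 member fell and none rose. The share of lower genes among all DEGs then went from 16.3% to 49% (75th percentile) and 48.8% (full quantile). The largest rises in the main fit were Lsm3 (LFC 1.40, SE 0.24, adjusted p = 7.52e-06), Sf3b1 (1.31, SE 0.32, adjusted p = 0.000704) and Lsm6 (1.30, SE 0.12, adjusted p = 6.68e-11). In morulae Lsm3 read 13.04, 13.17 and 13.15, Sf3b1 8.78, 8.56 and 8.59, and Lsm6 14.19, 14.20 and 14.33 after 13.06, 12.76 and 12.98 at the 8-cell stage, and again no arrays overlapped. Without 8-cell replicate 1 the morula count was 4. At the blastocyst Snrpc fell alone (LFC -1.04, SE 0.10, adjusted p = 9.06e-10), from 14.77, 14.56 and 14.74 to 13.61, 13.71 and 13.63, while no member rose (7.82% and 19.3% of all genes), and without morula replicate 3 or blastocyst replicate 1 no member was called. By the adjusted p alone 24 members passed at the 8-cell stage (42.7% of all genes), 37 at the morula (65.6%) and 15 at the blastocyst (53.8%). For the refits of these 3 steps without an array the all-gene shares are not given here.

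The promoters of 4 members are shown because these genes carry the results below. Syncrip, Snrnp35 and Cdc5l rose most in control 2-cell embryos and then parted under HDACi, and Sf3a1, a U2 subunit, fell in both treatments. Each sequence is the 250 bases before the RefSeq start of the gene in GRCm38.p6, written 5′ to 3′ on the strand of the gene. They lie at chr9:88482398-88482647 (minus), chr5:124482905-124483154 (plus), chr17:45433708-45433957 (minus) and chr11:4160104-4160353 (plus), in the order listed. Capitals mark a GC box, a CCAAT box, a CRE or an ETS motif on either strand, whose letters are spelled out in the next paragraph.
Syncrip: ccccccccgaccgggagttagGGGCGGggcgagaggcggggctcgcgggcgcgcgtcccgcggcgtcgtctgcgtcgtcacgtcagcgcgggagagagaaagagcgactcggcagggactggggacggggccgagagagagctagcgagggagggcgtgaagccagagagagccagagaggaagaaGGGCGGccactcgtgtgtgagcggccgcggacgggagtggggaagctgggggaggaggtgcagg
Snrnp35: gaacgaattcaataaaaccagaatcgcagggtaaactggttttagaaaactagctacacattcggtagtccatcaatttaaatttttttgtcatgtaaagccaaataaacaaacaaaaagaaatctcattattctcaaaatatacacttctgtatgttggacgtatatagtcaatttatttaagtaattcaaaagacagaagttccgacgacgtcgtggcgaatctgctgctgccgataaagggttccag
Cdc5l: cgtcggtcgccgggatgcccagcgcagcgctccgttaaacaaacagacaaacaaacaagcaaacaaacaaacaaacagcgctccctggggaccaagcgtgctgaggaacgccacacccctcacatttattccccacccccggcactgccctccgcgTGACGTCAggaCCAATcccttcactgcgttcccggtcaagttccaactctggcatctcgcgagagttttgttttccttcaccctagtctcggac
Sf3a1: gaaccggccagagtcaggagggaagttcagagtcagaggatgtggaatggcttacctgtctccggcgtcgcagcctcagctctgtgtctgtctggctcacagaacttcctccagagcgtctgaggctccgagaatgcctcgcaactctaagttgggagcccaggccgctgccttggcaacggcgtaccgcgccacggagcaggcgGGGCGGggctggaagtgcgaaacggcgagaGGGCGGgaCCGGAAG
The Syncrip window held 2 GC boxes, that of Cdc5l 1 CCAAT box and 1 CRE, and that of Sf3a1 1 ETS motif and 2 GC boxes, while no capital fell within the 250 bases of Snrnp35.

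RefSeq windows were found for 47 of the 53 members, 59 windows in all since some genes have several starts, each spanning 250 bases before to 50 after the start. The letters CCGGAAG of an ETS motif, read on both strands as for all motifs here, stood in 20 of these, or 33.9%, and in 8.86% of all 32851 windows of the genome's genes. The GC box GGGCGG stood in 59.3% against 35.7%, CCAAT in 45.8% against 37.4%, and the TATA box TATAAA in 5.08% against 13.6%. For the E-box CACGTG the shares were 13.6% and 7.15%, for the CRE TGACGTCA 6.78% and 1.79%, for YY1 (AAGATGGC) 6.78% and 2.75%, for NRF1 (GCGCATGC) 5.08% and 2.71%, and for TAATCC, read by OTX and OBOX type factors, 10.2% and 7.06%. A GC box can overlap other motifs, windows of 1 gene can overlap, and a match is a description of letters and not a bound site.

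At the 1-cell stage, which asks what the HDACi did by 12 hpi, no member became a DEG in either treatment. With T247 5.5% of all genes rose and 0.803% fell, and with MGCD0103 3.53% and 0.58%. At an adjusted p below 0.05 with no limit on the LFC, T247 gave 2 members higher and 8 lower (21.3% of all genes passed), and MGCD0103 4 and 4 (14.4%). The member medians were -0.08 and -0.04, the all-gene medians 0.00 and 0.10. The most reduced of these were Hnrnpk, an hnRNP that binds C-rich RNA, and Snrnp70, the U1-70K protein that anchors U1. Hnrnpk read 11.76, 12.11 and 11.81 in controls, 11.27, 11.15 and 11.20 with T247 and 11.27, 11.31 and 11.42 with MGCD0103. No treated array reached a control, and the LFCs were -0.69 (SE 0.09, adjusted p = 2.15e-06) and -0.56 (SE 0.09, adjusted p = 6.61e-05). Lsm6 was the most raised, by 0.66 (SE 0.12, adjusted p = 0.000114) and 0.71 (SE 0.12, adjusted p = 6.92e-05). Both treatments were compared with the same 3 control arrays.

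At the 2-cell stage, which the study assigns to the period of major ZGA, T247-treated embryos had 18 members lower than control and none higher. Among all genes 17.1% fell and 8.3% rose, and the median LFC was -0.76 for the members and -0.28 for all genes. At an adjusted p below 0.05 with no limit on the LFC 33 members were lower and 2 higher (55.6% of all genes passed). In 33 members all 3 treated arrays lay below all 3 controls, a pattern found in 38.6% of all genes, and in 1 they lay above (15.4%). The falls took 7 of the 12 hnRNP genes, 4 of 8 tri-snRNP, 2 of 3 U1, 1 of 7 Sm, 1 of 10 U2 and U2AF, 1 of 7 LSm and 1 of 2 exon junction genes, besides Snrnp35, and none of the 3 Prp19 complex genes. With 75th-percentile scaling the falls numbered 11 with 1 rise (11.2% and 11.3% of all genes). With full quantile normalization they numbered 14 with 2 rises (12.7% and 12.4% of all genes). The all-gene median then lay at -0.08 and -0.03 and the member median at -0.57 and -0.34. Without 2-cell control replicate 1 there were 17 falls and 1 rise, that of Snrpf (LFC 1.43), beside 24.5% and 8.53% of all genes.

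MGCD0103-treated 2-cell embryos had 16 members lower and 4 higher, beside 16.2% and 11.8% of all genes. The median was -0.26 for the members and 0.04 for all genes. By the adjusted p alone 25 members were lower and 13 higher (57.7% of all genes passed). All treated arrays lay below the controls in 25 members (28.5% of all genes) and above in 5 (21.2%). The falls held 3 of 12 hnRNP genes, 2 of 8 tri-snRNP, 2 of 3 U1, 3 of 10 U2 and U2AF, 2 of 7 LSm, 2 of 7 Sm and 1 of 2 exon junction genes with Snrnp35, and the 4 rises were 3 Sm genes and Sf3b3. Without 2-cell control replicate 1 there were 17 falls (22.3% of all genes) and 10 rises (14.6%). Without 1 of the other controls the rises went down to 1, and the all-gene share of that refit is not given here. With 75th-percentile scaling there were 15 falls and 5 rises (14.6% and 13.3% of all genes), and with full quantile normalization 15 falls and 9 rises (16% and 15.3%). The plot of both treatments by role shows the 2 sets of LFCs side by side. They share their control arrays, so the values stand here only beside each other.

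**Figure D2:**
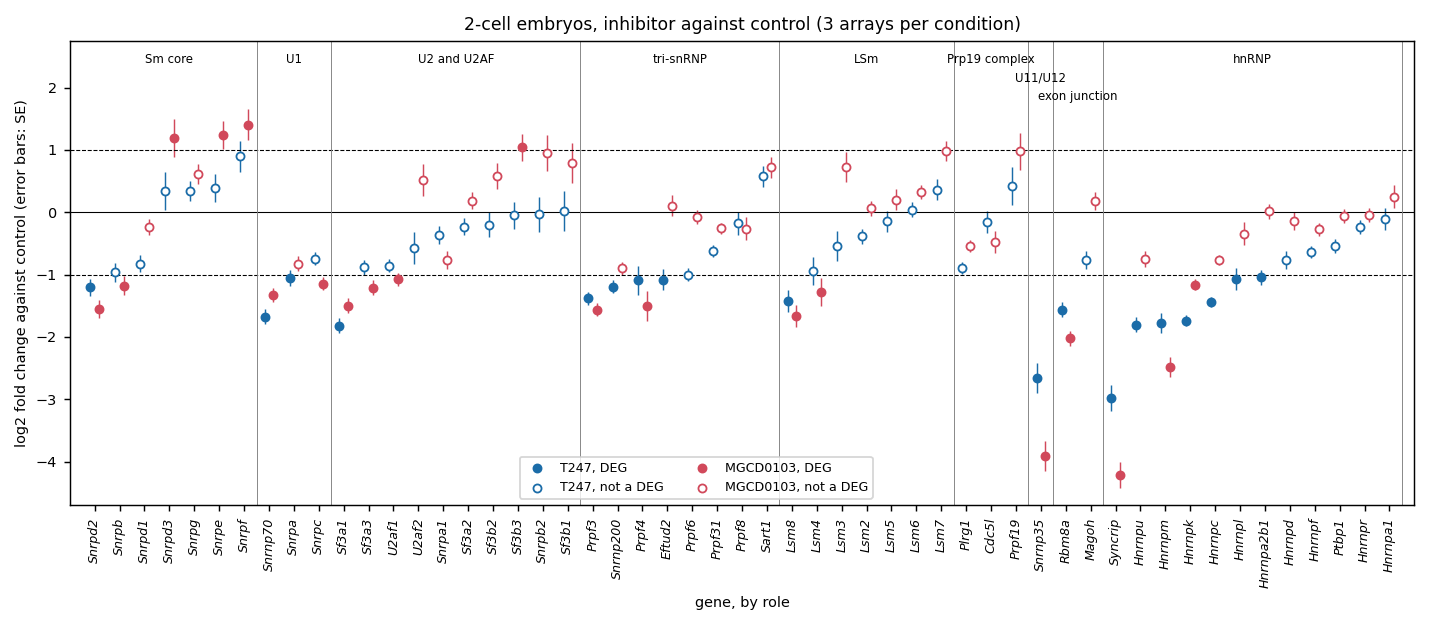
LFC of each member in 2-cell embryos treated with T247 or MGCD0103 against the same 3 control arrays (vertical axis, log2 units, bars of 1 SE), with members grouped by role along the horizontal axis, filled points for DEGs and dashed lines at an LFC of 1 and -1. Syncrip and Snrnp35 lie lowest in both treatments, at -2.98 and -2.65 for T247 and -4.21 and -3.91 for MGCD0103, and only MGCD0103 has filled points above the upper dashed line.

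Syncrip and Snrnp35, steep risers of the control embryo, were the members most reduced by both HDACi. Syncrip read 11.20, 11.91 and 11.81 in 2-cell controls, 8.88, 8.60 and 8.49 with T247 and 7.24, 7.65 and 7.42 with MGCD0103. The 3 groups did not overlap, and MGCD0103 arrays came closest to the 1-cell controls (6.29 to 6.87). The LFCs were -2.98 (SE 0.21, adjusted p = 1.35e-12) and -4.21 (SE 0.21, adjusted p = 6.73e-16), and without control replicate 1 -3.25 and -4.47. Snrnp35 read 10.45, 12.14 and 12.15, then 9.13, 8.81 and 8.84, and 7.51, 7.59 and 7.92. The low control was replicate 1, and it still stood above every treated array. The LFCs were -2.65 (SE 0.24, adjusted p = 1.76e-10) and -3.91 (SE 0.24, adjusted p = 5.51e-14), and without replicate 1 -3.26 and -4.51. A second Snrnp35 probe gave -2.25 and -3.74. The other Syncrip probe did not pass the detection filter, so the Syncrip values have no second probe beside them. Cdc5l, which had risen as steeply, read 14.69, 14.59 and 14.42 with T247 and 14.19, 14.18 and 14.36 with MGCD0103 against 14.81, 14.61 and 14.75, with LFCs of -0.16 (SE 0.17, adjusted p = 0.451) and -0.48 (SE 0.17, adjusted p = 0.0177), neither a DEG.

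**Figure D3:**
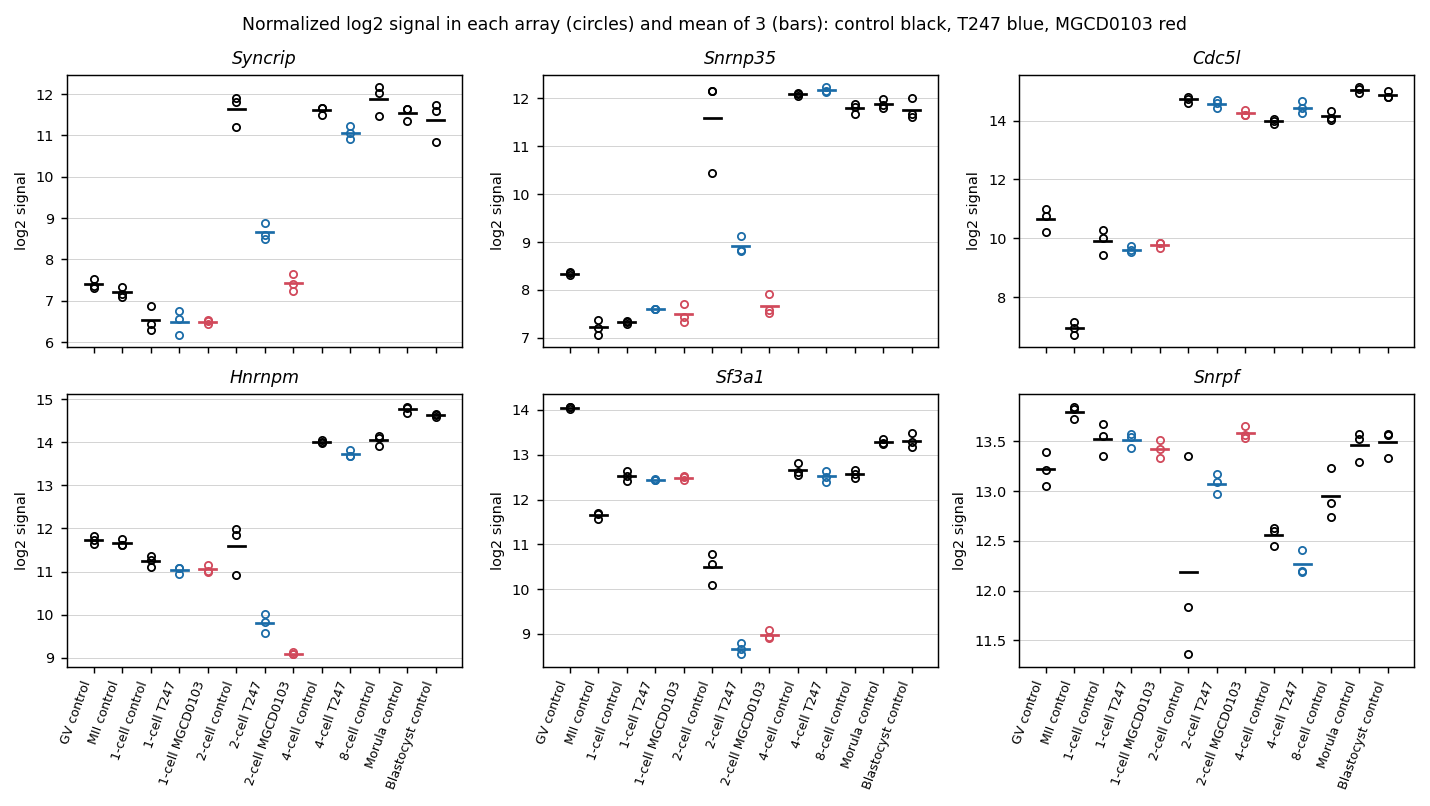
Normalized log2 signal of Syncrip, Snrnp35, Cdc5l, Hnrnpm, Sf3a1 and Snrpf on each array (points, 3 per condition, with the mean as a line) in all 13 conditions, with control arrays in black, T247 in blue and MGCD0103 in red. Syncrip and Snrnp35 separate into 3 levels at the 2-cell stage, Cdc5l stays between 14.18 and 14.81 there, and the Snrpf control of replicate 1 (13.36) stands apart from the other 2 (11.36 and 11.83).

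The hnRNP genes, the largest role with 12 members, held 7 of the 18 T247 falls. U1 had 2 of 3 and the tri-snRNP 4 of 8, so no preference for hnRNP genes is drawn from the count. Hnrnpm, a splicing silencer protein, read 10.91, 11.98 and 11.85 in controls, 10.02, 9.82 and 9.57 with T247 and 9.13, 9.09 and 9.08 with MGCD0103. The 3 groups were apart, with LFCs of -1.78 (SE 0.16, adjusted p = 1.33e-10) and -2.48 (SE 0.16, adjusted p = 1.19e-13), and without control replicate 1 -2.16 and -2.87. Hnrnpu, a nuclear matrix-associated hnRNP, read 12.01, 11.65 and 11.88 in controls, 10.05, 10.05 and 10.04 with T247 and 11.27, 11.10 and 10.93 with MGCD0103. Here the MGCD0103 arrays lay between the other groups, and only T247 gave a DEG, with an LFC of -1.80 (SE 0.13, adjusted p = 1.75e-12). Hnrnpk fell with both (-1.74, SE 0.09, adjusted p = 8.99e-15, and -1.16, SE 0.09, adjusted p = 1.12e-11). Hnrnpc, a poly-U binder of the hnRNP core particle, fell with T247 (-1.44, SE 0.08, adjusted p = 2.07e-14). Its second probe read -0.54 there. Hnrnpl (-1.07) and Hnrnpa2b1 (-1.04) fell with T247 too, and without control replicate 1 their LFCs of -0.93 (adjusted p = 1.83e-06) and -0.96 (adjusted p = 1.51e-08) lay just short of the limit.

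Hnrnpa1 was a case where the probes disagreed. Its brightest probe gave LFCs of -0.11 (T247) and 0.25 (MGCD0103), neither a DEG, and a second probe -1.51 and -1.34, both DEGs by the same fit over all probes. Over the 20 members with more than 1 passing probe there were 340 pairs of a member and a comparison, and 31 of these held a DEG by 1 probe and not by another. In 1 the probes were DEGs in opposite directions (Lsm6, 4-cell against 2-cell). Snrpe, Snrpg, Hnrnpa1 and Hnrnpc have many processed pseudogenes, and probe signal from near-identical copies cannot be told apart from theirs.

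Among the U1 and U2 proteins, Snrnp70 of U1 and Sf3a1 of U2 fell in both treatments. The 10 U2 and U2AF genes together had a median LFC of -0.30 with T247 and 0.35 with MGCD0103. Snrnp70 read 12.20, 12.76 and 12.70 in controls, 11.02, 10.86 and 10.74 with T247 and 11.35, 11.25 and 11.07 with MGCD0103, with LFCs of -1.68 (SE 0.12, adjusted p = 1.64e-12) and -1.33 (SE 0.12, adjusted p = 1.16e-10). Sf3a1 read 10.10, 10.79 and 10.56, then 8.79, 8.54 and 8.66, and 9.10, 8.93 and 8.92. No treated array reached a control in either gene. The Sf3a1 LFCs were -1.82 (SE 0.12, adjusted p = 4.89e-13) and -1.50 (SE 0.12, adjusted p = 1.44e-11). Without control replicate 1 they were -1.87 and -1.52 for Snrnp70 and -2.11 and -1.79 for Sf3a1. Of the other U1 proteins Snrpa fell with T247 (-1.06) and Snrpc with MGCD0103 (-1.15), and of U2 and U2AF Sf3a3 (-1.21) and U2af1 (-1.07) fell with MGCD0103. In the tri-snRNP the U4/U6 proteins Prpf3 (-1.38 and -1.56) and Prpf4 (-1.09 and -1.50) fell with both HDACi, and Snrnp200, the helicase that unwinds U4 from U6 (-1.19), and Eftud2, the GTPase of U5 (-1.08), with T247. Without control replicate 1 the T247 LFCs of Prpf4 (-0.90, adjusted p = 0.00048) and Eftud2 (-0.99, adjusted p = 2.16e-06) lay just short of the limit, and Snrnp200 was one with MGCD0103 (-1.12).

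Rbm8a encodes Y14, a core protein of the exon junction complex that marks spliced exons. It read 12.19, 12.85 and 12.73 in controls, 11.16, 10.98 and 10.94 with T247 and 10.57, 10.53 and 10.61 with MGCD0103, and the 3 groups did not overlap. The LFCs were -1.56 (SE 0.12, adjusted p = 4.52e-12) and -2.02 (SE 0.12, adjusted p = 1.69e-14), and without control replicate 1 -1.78 and -2.24. Its partner Magoh was no DEG in either treatment. In the U6 ring Lsm8, the subunit that sets the nuclear ring apart from the cytoplasmic one, fell by an LFC of -1.43 (SE 0.18, adjusted p = 7.28e-08) and -1.67 (SE 0.18, adjusted p = 4.15e-09). It read 10.25, 11.50 and 11.35 in controls, 9.73, 9.45 and 9.63 with T247 and 9.35, 9.34 and 9.40 with MGCD0103, so that replicate 1 was again the control nearest to the treated arrays, and without it the LFCs were -1.89 and -2.13. The array lists this probe under the older name Naa38. Lsm4 fell with MGCD0103 (-1.28), and its replicate 1 control (8.51) lay within the T247 arrays (8.49 to 8.69).

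The Sm ring was split under MGCD0103. Snrpd2 and Snrpb fell by LFCs of -1.55 and -1.18, while Snrpf, Snrpe and Snrpd3 rose. Snrpf read 13.36, 11.36 and 11.83 in controls and 13.57, 13.65 and 13.54 with MGCD0103, an LFC of 1.41 (SE 0.25, adjusted p = 2.58e-05). Snrpe read 15.06, 13.34 and 13.44 against 15.26, 15.17 and 15.13, an LFC of 1.24 (SE 0.23, adjusted p = 3.2e-05). In both genes the treated arrays lay above all controls, yet replicate 1 was within 0.3 log2 units of them. Snrpd3 read 12.70, 10.30 and 10.61 against 12.63, 12.38 and 12.16, and replicate 1 stood above every treated array (LFC 1.19, SE 0.31, adjusted p = 0.00156). The U2 gene Sf3b3 read 12.45, 10.90 and 10.98 against 12.63, 12.54 and 12.29, with replicate 1 inside the treated range (LFC 1.04, SE 0.22, adjusted p = 0.000206). Without replicate 1 the LFCs of these 4 rises were 1.93, 1.80, 1.84 and 1.46. The 1-cell controls read 13.36 to 13.68 for Snrpf, 15.22 to 15.36 for Snrpe, 13.77 to 14.24 for Snrpd3 and 13.07 to 13.58 for Sf3b3.

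The 2 compounds were also compared directly, at the same dose, exposure and time, as 1 pair at each of 2 stages with p adjusted over all genes. An equal time need not mean an equal developmental state, since only T247 embryos went on to the 4-cell stage. Each of these comparisons sets 1 slide against another. At the 1-cell stage no member differed as a DEG (0.0472% of all genes were higher with MGCD0103 and 0.196% lower), nor at an adjusted p below 0.05 with no limit on the LFC (0.526%), and the 95% intervals of all 53 differences lay between -0.72 and 0.77. At the 2-cell stage 6 members were higher with MGCD0103 than with T247 and 2 lower, beside 3.31% and 2.82% of all genes, with a median difference of 0.36 in members and 0.24 in all genes. The lower ones were Snrnp35 (-1.25, 95% interval -1.74 to -0.77, adjusted p = 0.000209) and Syncrip (-1.22, -1.65 to -0.80, adjusted p = 5.79e-05), whose arrays are given above and did not overlap between the compounds. The higher ones were Lsm3 (1.27, 0.78 to 1.76, adjusted p = 0.000184), Eftud2 (1.19, 0.83 to 1.54, adjusted p = 9.53e-06), Sf3b3 (1.09, 0.64 to 1.54, adjusted p = 0.00038), U2af2, the large U2AF subunit (1.08, 0.56 to 1.61, adjusted p = 0.00168), Hnrnpa2b1 (1.05, 0.81 to 1.30, adjusted p = 3.25e-07) and Hnrnpu (1.05, 0.79 to 1.31, adjusted p = 8.65e-07). With no limit on the LFC 27 members were higher and 7 lower (37.6% of all genes passed). With 75th-percentile scaling 2 members were higher and 2 lower (1.23% and 3.92% of all genes). With full quantile normalization the counts were 3 and 3 (2.75% and 5.78% of all genes). The 5.66% of members that were lower there was near the share of all genes.

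**Figure D4:**
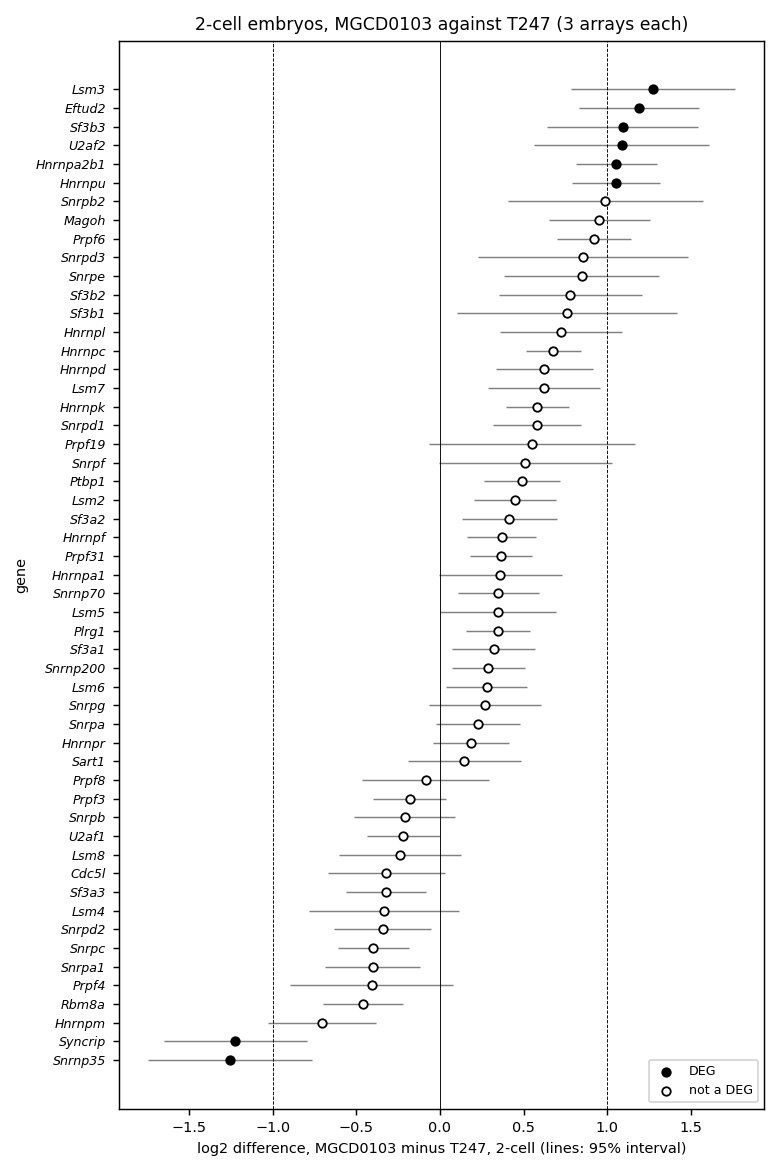
Difference between MGCD0103 and T247 in 2-cell embryos for each member (log2 units, 95% intervals, 3 arrays per compound), with the members ordered by that difference and filled points for DEGs. Syncrip and Snrnp35 lie at the bottom, at -1.22 and -1.25, and Lsm3 at the top, at 1.27, while for 45 members the difference was no DEG.

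Lsm3 shows how the compounds differed where the controls were spread. It read 9.06, 9.36 and 9.32 with T247 and 10.70, 10.52 and 10.33 with MGCD0103, with the compounds apart, and 10.86, 9.14 and 9.35 in controls, which spanned both. Eftud2 read 6.28, 6.01 and 5.91 with T247 and 7.43, 7.21 and 7.12 with MGCD0103, U2af2 8.17, 8.31 and 7.92 against 9.47, 9.27 and 8.92, and Sf3b3 11.28, 11.49 and 11.40 with T247. In these 3 genes too every MGCD0103 array stood above every T247 array. Hnrnpa2b1 read 10.20, 10.54 and 10.51 with T247, 11.61, 11.48 and 11.33 with MGCD0103 and 11.76, 11.31 and 11.31 in controls, so that MGCD0103 overlapped the controls and T247 did not. For several members that fell with both compounds a difference was not shown, with intervals of -0.40 to 0.04 for Prpf3, -0.60 to 0.12 for Lsm8, -0.90 to 0.08 for Prpf4 and -0.63 to -0.05 for Snrpd2 (adjusted p = 0.0583). For Sf3a1 the difference was 0.32 (0.07 to 0.57, adjusted p = 0.0369), short of the LFC limit.

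At the 4-cell stage, 48 hpi, T247 embryos had 4 members lower and none higher, beside 6.33% and 11% of all genes. The member median was -0.40 and the all-gene median -0.03. At an adjusted p below 0.05 with no limit on the LFC 28 members were lower and 1 higher (48.4% of all genes passed), and in 38 all treated arrays lay below all controls (31.8% of all genes), in 3 above (28.4%). Lsm3 read 10.65, 10.62 and 10.78 in controls and 8.91, 8.42 and 9.17 with T247 (LFC -1.85, SE 0.24, adjusted p = 3.6e-07). Hnrnpd, AUF1, which binds AU-rich elements, read 13.98, 13.97 and 14.07 against 12.61, 12.38 and 12.68 (LFC -1.45, SE 0.14, adjusted p = 3.58e-09). Both sets were well apart. Snrpb read 12.00, 12.16 and 12.00 against 11.19, 10.96 and 10.74 (LFC -1.09, SE 0.15, adjusted p = 6.37e-07), and U2af2 8.83, 8.62 and 8.81 against 7.62, 7.78 and 7.68 (LFC -1.06, SE 0.26, adjusted p = 0.00116), again with no overlap. The falls numbered 11 with 75th-percentile scaling (9.59% of all genes), 7 without control replicate 1 and 9 without T247 replicate 3. The all-gene shares of these refits without an array are not given here.

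None of the 5 members that T247 reduced most at the 2-cell stage was a DEG at the 4-cell stage, though several were still lower. Snrnp35 read 12.10, 12.05 and 12.09 in 4-cell controls and 12.12, 12.24 and 12.16 with T247, so that every treated array stood at or above the controls (LFC 0.09, SE 0.24, adjusted p = 0.772). Syncrip read 11.67, 11.50 and 11.66 against 11.06, 10.91 and 11.22, still below with no overlap (LFC -0.55, SE 0.21, adjusted p = 0.0305) but no DEG, and Sf3a1 read 12.81, 12.55 and 12.60 against 12.51, 12.63 and 12.40 with overlap (LFC -0.14, SE 0.12, adjusted p = 0.356). Hnrnpu read 12.80, 12.92 and 13.15 against 12.27, 12.22 and 12.51, all below the controls (LFC -0.62, SE 0.13, adjusted p = 0.000197). The change of the T247 effect between the 2 stages was tested as an interaction. It was positive in 8 members and negative in 3, beside 19.3% and 7.72% of all genes, with Snrnp35 at 2.75 (SE 0.34, adjusted p = 2.11e-07), Syncrip at 2.43 (SE 0.30, adjusted p = 1.63e-07) and Sf3a1 at 1.68 (SE 0.17, adjusted p = 1.03e-08). The negative ones were Lsm3 at -1.31 (SE 0.34, adjusted p = 0.0024), Snrpd3 at -1.29 (SE 0.43, adjusted p = 0.0166) and Snrpf at -1.19 (SE 0.36, adjusted p = 0.00762). At the 2-cell stage with T247 Snrpd3 read 11.36, 11.80 and 11.46 and Snrpf 12.97, 13.09 and 13.17. At the 4-cell stage Snrpd3 had a median of 12.98 (lowest 12.93) in controls and 12.06, 12.08 and 11.91 with T247, and Snrpf 12.45, 12.60 and 12.63 against 12.20, 12.19 and 12.41. In both genes the 4-cell T247 arrays lay below the controls, while at the 2-cell stage only replicate 1 of the controls lay above them. The interaction at any size passed in 31 members (44.2% of all genes). Without 2-cell control replicate 1 the counts were 12 and 8 (26.8% and 9.27% of all genes). With 75th-percentile scaling they were 5 and 10, and with full quantile normalization 6 and 6. The share of negative terms among all genes called went from 28.6% to 54.3% and 50.1% with these scalings.

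**Figure D5:**
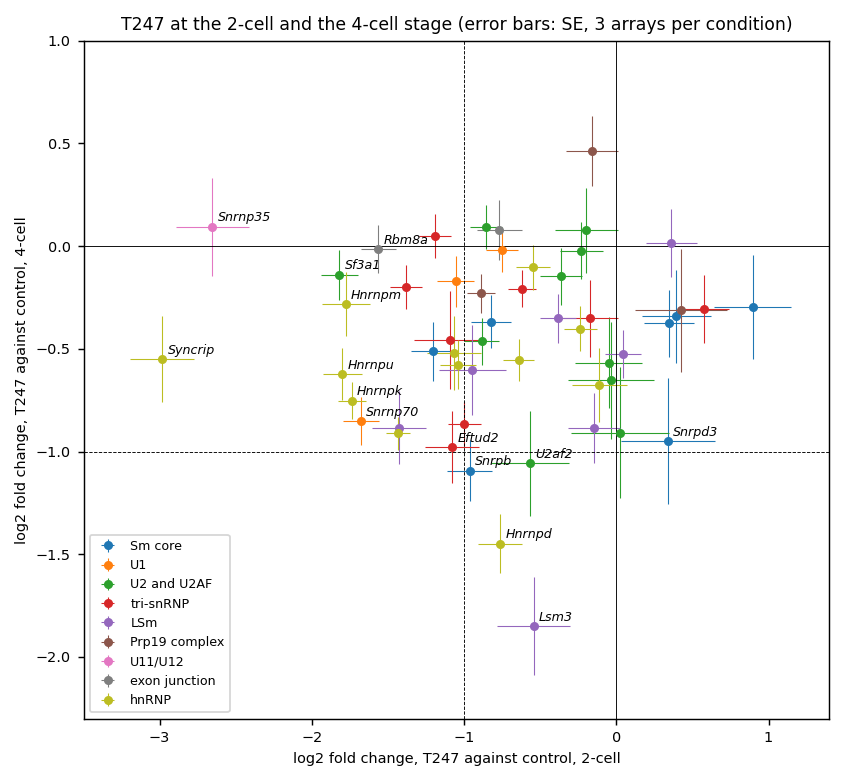
LFC of T247 against control at the 2-cell stage (horizontal axis) and at the 4-cell stage (vertical axis) for the 53 members, in log2 units with bars of 1 SE; the arrays of the 2 stages are different. Syncrip and Snrnp35 lie far left, at 4-cell LFCs of -0.55 and 0.09, and Lsm3 and Hnrnpd lie lowest, at -1.85 and -1.45.

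The change of the effect between the 1-cell and 2-cell stages was tested in the same way. For T247 it was negative in 16 members and positive in none, beside 15.9% and 4.31% of all genes, with a median of -0.69 against -0.29. Syncrip (-2.95, SE 0.30, adjusted p = 8.6e-09), Snrnp35 (-2.93, SE 0.34, adjusted p = 8.02e-08) and Sf3a1 (-1.74, SE 0.17, adjusted p = 6.35e-09) led. For MGCD0103 it was negative in 14 and positive in 5, beside 16.7% and 6.48% of all genes. Syncrip (-4.17, SE 0.30, adjusted p = 6.42e-12), Snrnp35 (-4.08, SE 0.34, adjusted p = 1.13e-10) and Hnrnpm (-2.29, SE 0.22, adjusted p = 2.45e-09) led the negative and Snrpf (1.51, SE 0.36, adjusted p = 0.00128), Sf3b1 (1.44, SE 0.45, adjusted p = 0.0135) and Snrpd3 (1.38, SE 0.43, adjusted p = 0.0136) the positive ones. Sf3b1 read 10.56, 10.81 and 10.66 in 1-cell controls, 10.07, 10.04 and 9.96 in 1-cell MGCD0103 embryos and 9.62, 9.34 and 9.36 in 2-cell MGCD0103 embryos, against 10.22, 7.72 and 8.02 in 2-cell controls. Its treated arrays lay between control replicate 1 and the other 2-cell controls. At the 1-cell stage the arrays of Sf3a1 (12.41 to 12.64 in controls, 12.43 to 12.46 with T247), Syncrip (6.29 to 6.87, 6.18 to 6.76, and 6.43 to 6.54 with MGCD0103) and Hnrnpm (11.10 to 11.37, and up to 11.15 with MGCD0103) overlapped between the groups. At any size 30 members passed for T247 (34.4% of all genes) and 32 for MGCD0103 (35.6%). Without 2-cell control replicate 1 the counts were 17 negative and 6 positive for T247 (24.2% and 6.3% of all genes), and 17 and 11 for MGCD0103 (23.8% and 10.6%). Under 75th-percentile scaling the T247 term was negative in 8 members and positive in 2, beside 1243 and 1048 of all 14825 genes. That of MGCD0103 was negative in 13 members and positive in 8, beside 1865 and 1565 genes. Among all genes called, the negative share thereby moved from 78.7% to 54.3% (T247) and from 72% to 54.4% (MGCD0103).

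Beyond the 53 members, 119 of 123 other splicing genes on 10 lists could be tested. At the 2-cell stage 41 (34.5%) fell and 1 (0.84%) rose with T247, beside 17.1% and 8.3% of all genes, with a median LFC of -0.77 against -0.28. With MGCD0103 30 (25.2%) fell and 10 (8.4%) rose, beside 16.2% and 11.8%, with a median of -0.42 against 0.04. With 75th-percentile scaling T247 gave 21 falls and 2 rises (11.2% and 11.3% of all genes) and MGCD0103 29 and 10 (14.6% and 13.3%). With full quantile normalization T247 gave 22 and 5 (12.7% and 12.4%) and MGCD0103 29 and 12 (16% and 15.3%). Without 2-cell control replicate 1 T247 gave 45 falls and 5 rises (24.5% and 8.53%) and MGCD0103 38 and 15 (22.3% and 14.6%). At the 1-cell stage 1 and 2 rose and none fell (5.5% and 3.53% of all genes rose), and at the 4-cell stage 2 rose and 3 fell with T247 (11% and 6.33%). The single 1-cell rise with T247 was Mbnl2, a muscleblind splicing regulator (LFC 1.28, SE 0.27, adjusted p = 0.000737), which rose with MGCD0103 too (1.19, SE 0.27, adjusted p = 0.00248), beside Luc7l2 of U1 (1.20, SE 0.15, adjusted p = 9.56e-07).

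The SR proteins, which activate splice sites by binding exons, gave 7 falls of 12 with T247 and 6 with MGCD0103, and no rise. The shares in the lists that follow stand beside the same 17.1% and 16.2% of all genes that fell, and nothing particular to a list is drawn from its count. Tra2a fell by LFCs of -2.44 and -3.16 and Srsf6 by -1.93 and -2.42. The minor spliceosome list of 7 genes, to which Snrnp35 adds 1 more, gave 2 and 4 falls. Its lowest was Zmat5, a protein of the U11/U12 particle, with -3.47 (SE 0.37, adjusted p = 3.84e-09) and -3.99 (SE 0.37, adjusted p = 2.13e-10), followed by Zcrb1 (-1.24 and -1.73). Of 13 genes that assemble snRNPs 5 and 4 fell, among them Snupn, which carries snRNPs into the nucleus (-1.84 and -2.30), and Ddx20, the SMN complex helicase (-1.70 and -2.39), while Gemin8 rose with MGCD0103 (1.02). Of 7 splicing kinases 4 and 3 fell, with Clk3 (-2.20 and -1.68) and Clk1 (-1.37 and -1.60) lowest, and Srpk2 rose with MGCD0103 (1.11).

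Among 15 further U1 and U2 genes 5 fell with T247, and 3 fell and 2 rose with MGCD0103. Luc7l was lowest with both (-2.63 and -2.70), and Rbm25 (1.01) and Luc7l2 (1.02) were the rises. Of 12 further tri-snRNP and B complex genes 5 fell with T247, led by Sart3, the U6 recycling factor (-1.94), and with MGCD0103 Prpf38a fell (-1.51) and Snrnp27 rose (1.74). The 21 further genes of the Prp19 complex and the catalytic step gave 4 falls with T247 and 3 falls and 3 rises with MGCD0103, with Xab2 at -2.14 and Crnkl1 at 1.40. Of 22 further hnRNP and exon definition genes 6 fell and 1 rose with T247, and 3 fell and 2 rose with MGCD0103, with Hnrnph3 at -1.13 and -2.04 and Mbnl2 at 1.13 and 1.67. Of 5 exon junction and release genes 1 fell with each, Tfip11 (-1.11, T247) and Casc3 (-1.80, MGCD0103), and of 6 LSm genes outside the U6 ring 2 with each, Lsm14b (-1.74 and -1.33) and Lsm12 (-1.33 and -1.38).

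At the 4-cell stage the 5 other splicing genes that were DEGs with T247 were Upf3b of the exon junction list (LFC -1.38), Smn1, the central SMN protein (-1.23), the SR gene Srsf9 (-1.06), Srpk2 (1.09) and Luc7l2 (1.00). In the direct comparison at the 2-cell stage 5 of the 119 (4.2%) were higher with MGCD0103 than with T247 and 1 (0.84%) lower, beside 3.31% and 2.82% of all genes, so the first share was near that of all genes and the second below it. They were Crnkl1 (1.28), Gemin8 (1.15), Snrnp27 (1.12), Celf1 (1.11), Srpk1 (1.10) and, lower, Xab2 (-1.10).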

How the data were processed

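Total RNA of 39 pools of oocytes or embryos was hybridised to 1-colour Agilent mouse arrays. The deposited scanner files hold spot intensity values that the authors extracted with Agilent Feature Extraction (version 10.7.1.1 per the file headers, 9.5.1.1 per the labels), and the series matrix holds log2 values processed by the authors for 19143 probes, which was used as an alternative since its scaling is not given in the sources used here. After the study's methods, spots called positive and significant were kept and a probe had to be detected in at least 1 of 3 arrays of each of the 13 conditions, while spots called outliers were also left out here. Then 2.21% of the probe values were filled in from the other arrays. The brightest probe stood for a gene, and log2 values underwent smooth quantile normalization. The fill-in and this normalization were rewritten here, and the published packages were not used, so values can differ from those of the authors. Signals are relative to each array's distribution and not absolute amounts.

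Probes were named through RefSeq accessions (27235), current symbols (3581) or synonyms (565), and 24300 were left unnamed. limma 3.58.1 in R 4.3.3 (with data.table, version 1.17.8, and statmod 1.5.0) was fitted to all 39 arrays of 14825 genes, with Benjamini-Hochberg adjustment over all genes, and its code was tested on simulated data. Intervals are 95% intervals of that fit, with 26 residual degrees of freedom before moderation. The array number limits the precision. The study describes the 3 samples of a condition as independent biological replicates, and the p-values measure the spread between these pools.

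Arrays were grouped by the labels. Values in single arrays, or their median or range, are given for the 5 member DEGs that rose and the 5 that fell most in each HDACi comparison, and for the 3 of each in a stage step or interaction. Of other splicing genes the 2 DEGs largest in each direction per list at the 2-cell stage are named, and further members or genes were chosen after their values were seen. The members and lists were chosen with earlier results of these data known, and the study names RNA splicing among the affected processes. Alternatives covered scaling, background correction, fill-in, detection filter, probe choice, slide, replicate block, call rule, arrays in the fit and each array left out. Control arrays of 1 replicate number shared a slide. Deviations of same-numbered arrays correlated by 0.232, 0.139 and 0.194 for MII against GV and by 0.241, 0.217 and 0.163 for 8-cell against 4-cell, while in every other comparison at least 1 pair stayed at or below 0.1. Promoter windows came from RefSeq tables of GRCm38.p6, and probe positions from the array files in mm9.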

Additional observations from a re-analysis of the deposited data

Results flagged for a closer look

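The effect of an inhibitor differed between stages, by an interaction term in limma with p adjusted over all genes, in the following members. Between the 1-cell and 2-cell stages the T247 effect moved by -2.95 log2 units for Syncrip, -2.93 for Snrnp35 and -1.74 for Sf3a1. The MGCD0103 effect moved by -4.17 for Syncrip, -4.08 for Snrnp35 and -2.29 for Hnrnpm, and by 1.51 for Snrpf, 1.44 for Sf3b1 and 1.38 for Snrpd3. Between the 2-cell and 4-cell stages the T247 effect moved by 2.75 for Snrnp35, 2.43 for Syncrip and 1.68 for Sf3a1, and by -1.31 for Lsm3, -1.29 for Snrpd3 and -1.19 for Snrpf. All of these terms use the same 3 control arrays of the 2-cell stage, of which replicate 1 stood apart, so they are not independent of each other. Without that array the terms of Snrpf, Sf3b1 and Snrpd3 for MGCD0103 were 2.04, 2.05 and 2.02, and those of Lsm3, Snrpd3 and Snrpf for T247 -1.71, -1.94 and -1.72.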

How the results depend on the processing

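Of 1407 alternative values of the 67 member results named by size, 1343 kept direction and call, 64 kept the direction and lost the call, and none reversed. Part of this was fixed in advance. Dropping the limit on the LFC cannot change these values, and the replicate block cannot change an LFC. Refits without 1 array gave 492 of the values, and the results were picked as the largest in the main fit. Of the counts of member DEGs 322 stayed within 1.5 times and 29 did not. These counts pool rises and falls, so a change of direction does not show in them. At MII 26 falls and no rise became 19 rises and 13 falls with 75th-percentile scaling. With it the T247 effect at the 4-cell minus the 2-cell stage went from 8 positive and 3 negative members to 5 and 10. Both counts were among those that stayed. A count of 0 in both fits was also taken to have stayed. With 75th-percentile scaling the count was 11 for T247 at the 4-cell stage (4 by smooth quantile normalization), 4 for MGCD0103 against T247 at the 2-cell stage, 10 for the T247 effect at the 2-cell minus the 1-cell stage, 1 at the morula and 3 at the blastocyst, and with full quantile normalization 10 for that T247 effect and 1 at the morula. After subtracting the median of all genes, an alternative chosen after seeing the data, MGCD0103 against T247 gave 3 at the 2-cell stage and the morula 1.

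With no limit on the LFC T247 gave 10, 35 and 29 in zygotes, 2-cell and 4-cell embryos and MGCD0103 8 and 38 in zygotes and 2-cell embryos, with 34 for MGCD0103 against T247 at the 2-cell stage, 30 and 32 for the T247 and MGCD0103 effects at the 2-cell minus the 1-cell stage, 31 for the T247 effect at the 4-cell minus the 2-cell stage, and 28, 24, 37 and 15 for the 1-cell, 8-cell, morula and blastocyst steps. Leaving out 1 array at a time gave T247 15 to 20 and MGCD0103 14 to 27 in 2-cell embryos, T247 3 to 9 in 4-cell embryos, 6 to 10 for MGCD0103 against T247, 11 to 23 and 15 to 28 for the T247 and MGCD0103 effects at the 2-cell minus the 1-cell stage, 10 to 20 for the T247 effect at the 4-cell minus the 2-cell stage, 26 to 28 at MII, 7 to 10 at the 1-cell, 34 to 37 at the 2-cell, 30 to 35 at the 4-cell, 2 to 6 at the 8-cell, 4 to 12 at the morula and 0 to 1 at the blastocyst step. These ranges pool rises and falls. For MGCD0103 in 2-cell embryos the falls ranged from 13 to 17 and the rises from 1 to 10, and for T247 from 15 to 20 and from 0 to 1. The shares of all genes also move with the array left out, and only those without 2-cell control replicate 1 are given above.

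The replicate block changed no count of member DEGs, including 26 at MII and 3 at the 8-cell stage, where the numbers pair the arrays. In the HDACi comparisons, where arrays share only a number, it also left T247 with 18 and MGCD0103 with 20 in 2-cell embryos. With slide as a random block T247 had 19 at the 2-cell stage. Slide was also fitted as a fixed block, chosen after seeing the data. For the T247 effect at the 4-cell minus the 2-cell stage it left 1 array, 4-cell T247 replicate 1, on the slide of the 2-cell T247 arrays. No count is therefore given for that effect with the fixed block. The fixed block can be fitted only for the interactions and the control stage steps. It says nothing of an inhibitor against control, where slide and treatment cannot be told apart.

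Another scaling moved the share of lower genes among all DEGs by over 10 percentage points in these comparisons. The share that was lower went from 67.3% to 49.8% (75th percentile) or 50.5% (full quantile) for T247 and from 46% to 76.2% or 67.8% for MGCD0103 against T247 at the 2-cell stage, and from 36.5% to 52% (75th percentile) for T247 at the 4-cell stage. For the 1-cell stage it went from 12.7% to 23.5% (75th percentile) with T247 and from 14.1% to 31.5% or 25.9% with MGCD0103. For the T247 effect it went from 78.7% to 54.3% or 54.4% (2-cell minus 1-cell) and from 28.6% to 54.3% or 50.1% (4-cell minus 2-cell), and for the MGCD0103 effect from 72% to 54.4% or 54.8%. In the stage steps it went from 98.9% to 44.6% or 44.3% at MII, from 24.7% to 52.5% or 40.5% at the 1-cell, from 57% to 44.5% (75th percentile) at the 4-cell, from 16.3% to 49% or 48.8% at the morula and from 28.8% to 57.2% or 48.4% at the blastocyst step. The shift of the all-gene median was largest at MII (1.29 and 1.26 log2 units) and lay between -0.65 and 0.46 elsewhere. The cause was not tested.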

Other observations

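Probes of the same gene could disagree. For Snrpd1 the brightest probe gave an LFC of -0.24 with MGCD0103 at the 2-cell stage and another probe 1.17. For Lsm6 the brightest probe rose by 1.67 between the 2-cell and 4-cell controls, while a dimmer probe gave -3.23.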
